A study of Mus musculus with 6 samples.

Results

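The unfolded protein response and the integrated stress response were followed through 10 genes: Atf4, Ddit3, Trib3, Xbp1, Hspa5, Hsp90b1, Dnajb9, Sdf2l1, Herpud1 and Sel1l. They were chosen by name, as chaperones of the endoplasmic reticulum (ER) and targets of the transcription factors ATF4, ATF6 and XBP1, out of 17459 genes in the count table. All 10 were present and all 10 were among the 13490 genes with enough counts to be tested. RNA sequencing had been run on microglia, the resident macrophages of the brain, isolated from male C57BL/6J mice labelled as 8 weeks old. The knockout (cKO, n = 3 libraries) was homozygous for loxP-flanked Mir137, and the control (cWT, n = 3 libraries) had intact Mir137. Both genotypes carried the tamoxifen-inducible Cre recombinase Tmem119-CreERT2, active in cells that use the Tmem119 gene, and were injected with tamoxifen on 7 days from an age of 7 to 8 weeks. The sources give 4 mice for the isolation and do not say how mice map to libraries, so p-values measure the spread between libraries, which may be technical.

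Secreted and membrane proteins fold in the ER with the help of chaperones such as BiP, the product of Hspa5. When unfolded proteins build up, the sensors IRE1, PERK and ATF6 are activated. IRE1 splices Xbp1 mRNA so that it encodes an active transcription factor, PERK phosphorylates the initiation factor eIF2alpha so that translation slows while Atf4 is translated, and ATF6 is cut to release a transcription factor that raises chaperone genes. The phosphorylation of eIF2alpha by any of its kinases is called the integrated stress response. Proteins that cannot be folded are pulled back out of the ER and degraded, a route that uses the products of Herpud1 and Sel1l. Secreted and lysosomal proteins of microglia pass through this compartment.

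The promoters below carry the best known binding element of ATF6 and XBP1, the ER stress response element (ERSE), which was searched on both strands as CCAAT, 9 bases of any kind and CCACG. They are shown because this element is a sequence feature that makes a gene a candidate for control by these factors. Sequences are from RefSeq, build GRCm38.p6, read along the strand of the gene, with the element in capitals.
Hspa5, chr2:34772013-34772055, + strand: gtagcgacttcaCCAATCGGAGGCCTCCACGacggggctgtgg
Hsp90b1 upstream element, chr10:86705626-86705668, - strand: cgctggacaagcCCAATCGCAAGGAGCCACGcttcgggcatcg
Hsp90b1 downstream element, in the reverse direction, chr10:86705521-86705563, - strand: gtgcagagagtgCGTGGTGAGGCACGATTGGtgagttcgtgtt
Herpud1, a variant element of ATTGG, 1 base and CCACG, chr8:94386365-94386399, + strand: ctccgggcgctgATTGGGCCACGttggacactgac
Among 32851 promoters in the RefSeq table, 0.113% hold the full ERSE in the 250 bases before the start and 0.0304% hold the variant. All 10 genes had a promoter in the table, and in the other 7 neither set of letters occurred in this window. The Herpud1 promoter also held a match to TGATGNAA, the core of the element bound by ATF4 with C/EBP factors, which 3.45% of promoters have. UPRE, the letters TGACGTGG bound by XBP1, occurred in none of the 10 windows and in 0.563% of all promoters. A match is a description of letters and not a measured binding site.

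The microRNA removed in cKO is shown to set its seed against the same genes. The mature strand miR-137-3p from RefSeq has its seed, bases 2 to 8, in capitals.
miR-137-3p: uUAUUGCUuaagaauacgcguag
Its 7-base match, AGCAATA, was present in the longest annotated 3' UTR of 10.3% of 16236 genes. It was found in 0 of the 10 stress response genes, whose 3' UTRs ran from 81 bases in Atf4 to 3801 bases in Sel1l. Mir137 was not among the genes of the count table, and its base mean was 0 in the authors' deposited table, so the deletion was not checked here.

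Libraries held 16503825 to 17482042 counts in cWT and 12068703, 12562363 and 15212800 in cKO. All 10 microglial markers were detected in each library, and 5 of them were called higher and 4 lower in cKO, with a summed level of 36238 to 38588 CPM (counts of a gene relative to the scaled library total) in cWT and 42757 to 50108 CPM in cKO. In markers of other cells, 7 of 7 choroid plexus and ependymal genes were called higher in cKO, with a summed level of 2173 to 2454 CPM in cWT and 10468 to 14135 CPM in cKO. Likewise 5 of 5 neutrophil genes measured were higher, at 2852 to 3512 against 10069 to 14688 CPM. Sums lean on the most abundant gene of a list. The choroid plexus gene Ttr alone stood at 2073 to 2328 CPM in cWT and at 10241 to 13868 CPM in cKO. The neutrophil gene S100a9 stood at 1361 to 1683 and 5017 to 7560 CPM. Of all genes tested, 35.6% were called higher and 36.5% lower in cKO. Marker calls were not adjusted for transcript length. Other lists were mixed. Endothelial markers summed to 1153 to 1394 CPM in cWT and 1550 to 1845 CPM in cKO, with 2 genes higher, Ly6c1 being the most abundant over all libraries, and 4 lower. Monocyte markers summed to 865 to 980 and 1085 to 1393 CPM, with 3 higher, among them the abundant Chil3, and 2 lower. Border-associated macrophage markers summed to 798 to 1004 and 761 to 943 CPM, with 4 higher and 1 lower, the abundant Mrc1. Astrocyte markers summed to 389 to 403 and 407 to 639 CPM (2 higher, 0 lower of 7), and oligodendrocyte markers to 283 to 291 and 308 to 460 CPM (5 higher, 1 lower of 7). Neuronal markers summed to 14.2 to 17.1 and 20.2 to 27.6 CPM. The neuronal markers Rbfox3, Syt1, Slc17a7 and Gad2 and the T cell marker Cd3e had a count of 0 in at least 1 library. The part of these cells in the results was not tested. In bulk RNA a change in the number of cells of a type and a change in RNA per cell cannot be told apart.

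The comparison asked which of these transcripts differ in microglia of the Mir137 knockout. Of the 10, 6 were called higher in cKO (Sdf2l1, Ddit3, Xbp1, Dnajb9, Atf4 and Herpud1), 1 was called lower (Sel1l), and Trib3, Hspa5 and Hsp90b1 were not called, at an adjusted p under 0.05 in edgeR. Across all genes tested, 72.1% were called, 35.6% higher and 36.5% lower, so 7 of 10 called is near the background. The median log2 fold change of the 10 genes was 0.53, ranging from -1.41 to 1.39, while the median of all genes was -0.02. The levels of 8 of the 10 did not overlap between genotypes, where 74.6% of all genes did not. Scaling by total counts alone moved the median of all genes to -0.42, and fold changes are given relative to the TMM scale.

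**Figure D1:**
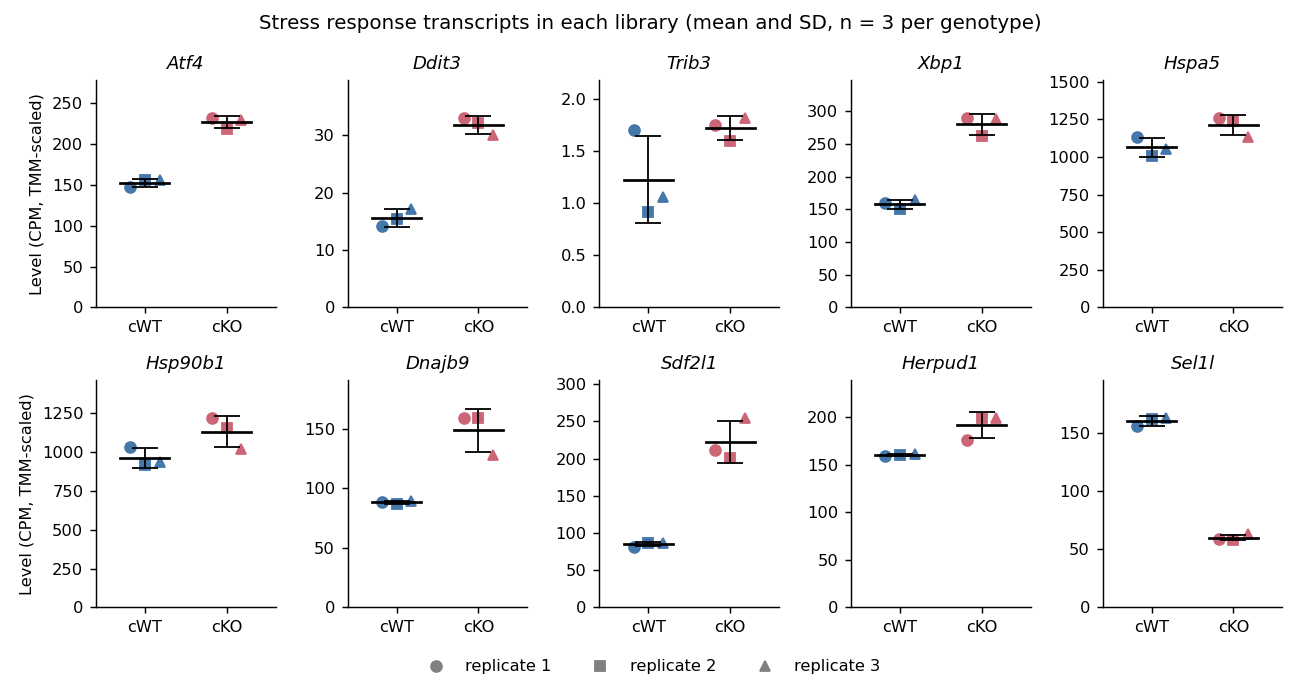
Level of each of the 10 genes in each library, in CPM on axes that start at 0, with a different marker for each replicate number, a line for the mean and a bar for the SD (n = 3 per genotype). Sel1l is the only gene lower in all 3 cKO libraries, and Trib3 and Hsp90b1 are those whose genotypes overlap.

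Fold changes in these libraries followed transcript length, and each gene is therefore set beside genes of like length. Across 13402 genes whose length was annotated, log2 fold change and length had a Spearman correlation of -0.72, a description across genes that share the same 6 libraries. Tested genes were put in 10 length classes of equal size, and the median log2 fold change fell from 1.58 in the shortest class to -1.44 in the longest. Across the 10 stress response genes, whose transcripts run from 890 bases in Ddit3 to 6300 bases in Sel1l, the same correlation was -0.79. Values are also given with offsets, a refit in which a smooth trend of each library on length and GC content was taken out of every gene, whatever its source. With the offsets the correlation with length was -0.07 over all genes and 0.18 over the 10. Then 4 of the 10 were called higher (Xbp1, Hspa5, Dnajb9 and Sdf2l1) and 3 lower (Sel1l, Ddit3 and Herpud1), with a median of 0.16. In that fit 56.8% of all genes were called, 29.6% higher and 27.2% lower.

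**Figure D2:**
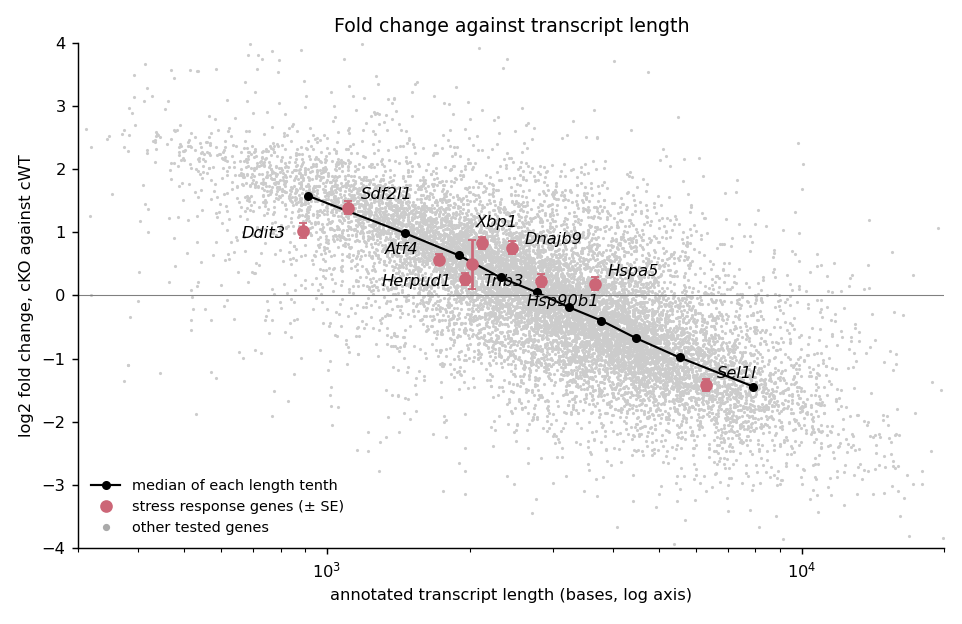
Log2 fold change of cKO against cWT for all tested genes (grey) and the 10 stress response genes (red, ± SE) against annotated transcript length on a log axis, with the median of each of 10 length classes in black. Atf4 and Trib3 lie near the line, Ddit3, Herpud1 and Sel1l below it, and Hspa5, Xbp1 and Dnajb9 above it.

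Atf4, the transcription factor of the integrated stress response (chromosome 15, 80255184 to 80257545), was measured at 147, 155 and 156 CPM in the cWT libraries and at 232, 218 and 229 CPM in the cKO libraries. The genotypes did not overlap. Its mean rose from 153 ± 4.82 to 226 ± 7.27 CPM (SD, n = 3 each), which is 0.57 in log2 (SE 0.09, adjusted p = 1.45e-05 in edgeR). Scaled by total counts alone it stood at 0.17 (adjusted p = 0.0801), and with the offsets at -0.07 (adjusted p = 0.401). Its transcript of 1725 bases falls in a length class with a median of 0.63, in which 65.9% of genes rose. ATF4 is controlled mainly by translation, which RNA counts do not measure.

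Ddit3, which encodes the pro-apoptotic factor CHOP (chromosome 10, 127290793 to 127296291), stood at 14.2, 15.5 and 17.2 CPM in cWT and at 33.1, 32.1 and 30.1 CPM in cKO. Every cKO library was above every cWT library. The difference was 1.02 in log2 (SE 0.12, adjusted p = 5.60e-07). Ddit3 has the shortest transcript of the 10, and in its length class the median was 1.58 and 86.6% of genes rose. With the offsets it was called in the opposite direction, at -0.34 (adjusted p = 0.0158).

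Trib3, a pseudokinase induced by ATF4 and CHOP (chromosome 2, 152337425 to 152344060), was close to the limit of detection, with counts of 32, 18 and 21 in cWT and 18, 18 and 24 in cKO. That corresponds to 1.70, 0.921 and 1.06 CPM in cWT and 1.75, 1.59 and 1.82 CPM in cKO. The genotypes overlapped, since cWT replicate 1 was as high as the cKO libraries. No difference was detectable at this depth (log2 fold change 0.49, SE 0.39, adjusted p = 0.265, and 0.26 with the offsets). The median of the length class of Trib3 was 0.63.

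Xbp1, whose spliced mRNA encodes the transcription factor of the IRE1 branch (chromosome 11, 5520641 to 5525993), was at 160, 151 and 164 CPM in cWT and at 291, 262 and 288 CPM in cKO. The lowest cKO library was well above the highest cWT library. It rose by 0.83 in log2 (SE 0.09, adjusted p = 2.27e-07), against a median of 0.28 in its length class, where 45.6% of genes rose. Its 2129 bases lie near the lower edge of that class, which starts at 2107 bases. In the next shorter class the median was 0.63 and 65.9% of genes rose. Xbp1 was still higher with the offsets, at 0.48 (adjusted p = 9.28e-06), and with total counts alone, at 0.43. Counts per gene do not separate the spliced from the unspliced form, so IRE1 activity was not measured.

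Hspa5, the ER chaperone BiP (chromosome 2, 34772090 to 34776529), was among the most abundant of the 10, with 1133, 1009 and 1052 CPM in cWT and 1261, 1242 and 1135 CPM in cKO. The groups did not overlap, although cKO replicate 3 was within 2 CPM of cWT replicate 1. The log2 fold change of 0.19 was not called (SE 0.10, adjusted p = 0.106). It was called without cKO replicate 3 (0.25, adjusted p = 0.0258), and with DESeq2 (adjusted p = 0.0354), and it turned to -0.21 with total counts alone (adjusted p = 0.0642). Transcripts of its length, 3672 bases, had a median of -0.40, and with the offsets Hspa5 was called higher at 0.40 (adjusted p = 7.91e-05).

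Hsp90b1, the ER form of HSP90 that folds Toll-like receptors and integrins (chromosome 10, 86690841 to 86705444), had 1033, 914 and 936 CPM in cWT and 1221, 1153 and 1021 CPM in cKO. The genotypes overlapped through cWT replicate 1 and cKO replicate 3. The difference of 0.24 in log2 (SE 0.11, adjusted p = 0.0540) was not called. It was called without cWT replicate 1 (0.28, adjusted p = 0.0386) or without cKO replicate 3 (0.32, adjusted p = 0.00584), with DESeq2 (adjusted p = 0.0174), with DESeq2's size factors in edgeR (adjusted p = 0.0427) and with a filter of 5 CPM in 3 libraries (adjusted p = 0.0360). With total counts alone it was at -0.16 and with the offsets at 0.06 (adjusted p = 0.510). The median of the length class of Hsp90b1 was 0.05, and 30.8% of genes in that class rose.

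Dnajb9, a co-chaperone of BiP that restrains IRE1 (chromosome 12, 44205897 to 44210068), rose from 88.4, 86.7 and 89.4 CPM in cWT to 159, 159 and 128 CPM in cKO. The cWT libraries lay within 3 CPM of each other, and cKO replicate 3 was the lowest of the cKO libraries. The rise was 0.75 in log2 (SE 0.10, adjusted p = 2.43e-06). It was 0.30 with the offsets (adjusted p = 0.00170), and the median of its length class was 0.28.

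Sdf2l1, an ER protein that works with the BiP co-chaperone ERdj3 (chromosome 16, 17130138 to 17132383), showed the largest increase of the 10. It was at 81.7, 86.9 and 86.4 CPM in cWT and at 211, 201 and 255 CPM in cKO, with cKO replicate 3 the highest. The change was 2.62-fold, or 1.39 in log2 (SE 0.10, adjusted p = 1.14e-09). Its transcript of 1108 bases is in the shortest class, whose median was 1.58. That class runs from 171 to 1209 bases, and the next class had a median of 0.99. With the offsets Sdf2l1 was called higher, at 0.28 (adjusted p = 0.00295).

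Herpud1, an ER membrane protein that recruits the degradation machinery (chromosome 8, 94386429 to 94395371), was at 159, 160 and 162 CPM in cWT and at 176, 199 and 199 CPM in cKO. No cKO library fell into the cWT range, and cKO replicate 1 was nearest to it. The log2 fold change of 0.26 was called (SE 0.09, adjusted p = 0.0172), but not without cWT replicate 2 (adjusted p = 0.0684), without cWT replicate 3 (adjusted p = 0.0573) or when low counts were not filtered (adjusted p = 0.0584). Its direction turned with total counts alone (-0.14, adjusted p = 0.20) and with the offsets, where it was called lower at -0.23 (adjusted p = 0.00751). The median of its length class was 0.63.

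Sel1l, the adaptor of the ubiquitin ligase HRD1 in ER-associated degradation (chromosome 12, 91806043 to 91849157), was the gene that fell. It was at 156, 162 and 164 CPM in cWT and at 59.1, 58.5 and 63.1 CPM in cKO. The 2 ranges were narrow and far apart. The level was 2.67-fold lower, or -1.41 in log2 (SE 0.09, adjusted p = 2.01e-10). Its transcript is the longest of the 10, in a class with a median of -0.98 where 75.8% of genes fell. With the offsets Sel1l was still called lower, at -0.35 (adjusted p = 5.35e-04).

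**Figure D3:**
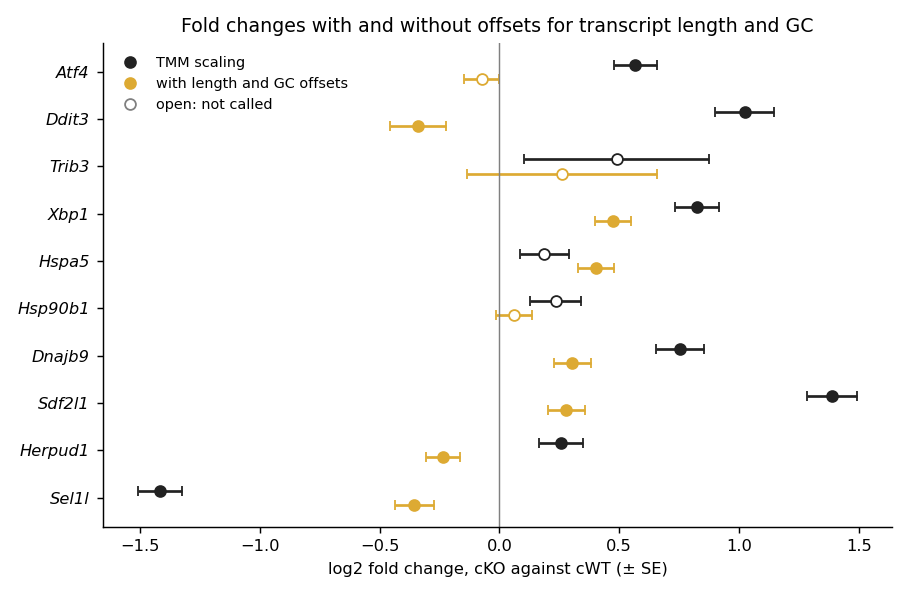
Log2 fold change of cKO against cWT with its SE for the 10 genes, with TMM scaling (black) and after the length and GC offsets (yellow). Filled points passed an adjusted p under 0.05. Xbp1, Dnajb9, Sdf2l1 and Sel1l keep their direction and call in both fits, Ddit3 and Herpud1 are called in opposite directions.

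Ratios of counts within a library, chosen after the values were seen, do not depend on scaling between libraries, although they carry the trend with length where the transcripts differ in length. Counts of Xbp1 and Herpud1, whose transcripts have 2129 and 1952 bases, stood in a ratio of 0.944 to 1.01 in cWT and of 1.65, 1.31 and 1.45 in cKO. The cKO ratios were higher in 3 of 3 libraries. The ratio of Ddit3 to Atf4 (890 and 1725 bases) was 0.102 ± 0.00750 in cWT and 0.140 ± 0.00821 in cKO, and that of Sdf2l1 to Hspa5 (1108 and 3672 bases) was 0.0801 ± 0.00723 and 0.185 ± 0.0349 (SD, n = 3 each), with no overlap. With the offsets both orders turned, Ddit3 being at -0.34 beside -0.07 for Atf4, and Sdf2l1 at 0.28 beside 0.40 for Hspa5. Each of these 3 ratios reached an exact two-sided permutation p of 0.10, the smallest that 3 against 3 libraries allow (0.167 adjusted over the 5 ratios computed). The ER chaperones Hsp90b1 and Hspa5 kept a ratio of 0.902 ± 0.0118 in cWT and 0.932 ± 0.0345 in cKO, with overlap (exact permutation p = 0.30, adjusted 0.375). Sel1l and its ligase partner Syvn1 stood at 2.69 ± 0.168 and 2.67 ± 0.109 (exact permutation p = 1, adjusted 1), a difference within the spread. Their transcripts have 6300 and 3464 bases, and with the offsets Sel1l was at -0.35 and Syvn1 at -0.91.

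Levels can be compared between genes only per transcript length, here as CPM per kilobase. In cWT, Hsp90b1 was highest with 340 ± 22.5 CPM per kilobase and Hspa5 next with 290 ± 17.1, with no overlap between them. Atf4 (88.5 ± 2.80), Herpud1 (82.1 ± 0.611), Sdf2l1 (76.7 ± 2.61) and Xbp1 (74.3 ± 3.16) followed, and of these only the neighbours Sdf2l1 and Xbp1 overlapped. Dnajb9 was at 35.8 ± 0.555, Sel1l at 25.5 ± 0.634, Ddit3 at 17.5 ± 1.72 and Trib3 at 0.606 ± 0.205 CPM per kilobase. In cKO the order changed in that Sdf2l1 stood next to the abundant chaperones at 201 ± 26.0 CPM per kilobase. Xbp1 (132 ± 7.39) and Atf4 (131 ± 4.22) followed with overlapping ranges, then Herpud1 (98.1 ± 7.02) and Dnajb9 (60.4 ± 7.39). Ddit3 (35.7 ± 1.74) lay above Sel1l (9.56 ± 0.394) there. Sdf2l1 passed Atf4, Herpud1 and Ddit3 passed Sel1l, and each of these moved above longer transcripts. Xbp1 passed Herpud1 and came level with Atf4, whose transcripts are both shorter. The part of transcript length in these changes of order was not tested. With the offsets the cKO level was 1.21-fold that of cWT for Sdf2l1 and 1.39-fold for Xbp1. It was 0.95-fold for Atf4, 0.85-fold for Herpud1, 0.79-fold for Ddit3 and 0.78-fold for Sel1l.

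Across the replicates of cKO, library 3 differed most for the chaperones. It was the lowest cKO library for Ddit3, Hspa5, Hsp90b1 and Dnajb9 and the highest for Trib3, Sdf2l1 and Sel1l. The coefficient of variation within cWT was 9.79% or less for all genes but Trib3 (33.9%), and within cKO it was 12.97% for Sdf2l1, 12.2% for Dnajb9 and 9.002% or less for the others.

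Upstream of these genes, 22 genes of the sensors and of the eIF2alpha pathway were measured, and 9 rose while 10 fell (median -0.16, and 0.24 with the offsets, where 11 rose and 6 fell). Beside this, 35.6% of all genes tested rose and 36.5% fell, and 29.6% and 27.2% with the offsets. The sensors, named here after their values were seen, were all called lower. Ern1, which encodes IRE1, went from 29.9 ± 1.06 to 5.38 ± 2.05 CPM (log2 fold change -2.46, SE 0.19, adjusted p = 2.14e-09) and was still lower with the offsets at -1.23. Eif2ak3, which encodes PERK, stood at -0.58 and Atf6 at -0.78, but Eif2ak3 was at 0.08 with the offsets and Atf6 was then called higher at 0.40. The transcripts of Ern1 (6946 bases) and Atf6 (7246 bases) are long. All 5 subunits of eIF2B, the exchange factor that phosphorylated eIF2alpha blocks, were called higher, with log2 fold changes from 0.66 in Eif2b4 upwards, the highest in Eif2b2. With the offsets Eif2b3 was not called (-0.05) and the other 4 were higher. Eif2s1, which encodes eIF2alpha, rose by 0.96 and by 0.95 with the offsets. Of the phosphatase subunits that reverse its phosphorylation, Ppp1r15b fell by 1.13 (-0.20 with the offsets) and the inducible Ppp1r15a was not called (0.18, adjusted p = 0.172, and called at 0.33 with the offsets and at 0.27 without cKO replicate 1). The smallest p-values in this group were those of the membrane-bound factor Creb3, up by 1.57 (1.04 with the offsets), Eif2b2, up by 1.40 (0.69), and Creb3l2, at -2.01 (-0.77).

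Downstream of ATF4 and CHOP, 42 genes were tested, of which 13 rose and 15 fell (median -0.02, and -0.09 with the offsets, 17 higher and 16 lower). Over all genes tested 35.6% rose and 36.5% fell, and 29.6% and 27.2% with the offsets, and the counts of this and the following lists are to be read beside these shares. Ddit4, an inhibitor of mTORC1, rose from 99.5 ± 5.20 to 578 ± 36.9 CPM (log2 fold change 2.54, SE 0.10, adjusted p = 1.75e-12), and by 2.08 with the offsets. The translation repressor gene Eif4ebp1 rose by 1.71 (1.14 with the offsets) and the amino acid transporter gene Slc7a1 fell by 1.99 (-0.70). Some targets often read as markers of the integrated stress response were named here after their values were seen. Of these Asns, with counts of 32 to 62, rose by 1.07 (adjusted p = 0.00174, and not called with the offsets). Atf3 fell by 0.84 (adjusted p = 4.09e-04, and called at -1.34 with the offsets). Chac1, with counts of 5 to 19, was at 0.842 ± 0.110 and 0.593 ± 0.201 CPM (log2 fold change -0.53, adjusted p = 0.355, and -1.10 and not called with the offsets). Other targets, also picked with their values known, were called in both fits, in either direction. Psat1 was higher at 1.25 (1.09 with the offsets) and Psph at 1.79 (1.13). Phgdh was lower at -0.95 (-1.32 with the offsets) and Mthfd2 at -0.76 (-1.24).

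Other ER chaperones and folding enzymes numbered 28, with 14 higher and 8 lower (median 0.19, and 0.20 with the offsets). Fkbp2, a prolyl isomerase, and Sdf2, the paralog of Sdf2l1, rose by 1.77 and 1.73, and by 0.29 and 0.58 with the offsets. Uggt1, which marks misfolded glycoproteins for another round of folding, fell by 1.23 and was called higher with the offsets, at 0.24. Named after their values were seen, Manf, a secreted protein induced by ER stress, rose by 1.35 (1.03 with the offsets), Hyou1, an exchange factor of BiP, fell by 1.09 (-0.35), and Calr, which encodes calreticulin, was at -0.21 and not called (adjusted p = 0.0826, and called lower at -0.60 with the offsets). Calr was also called lower without cWT replicate 1 or cKO replicate 3, at -0.27 each, and when low counts were not filtered, at -0.25.

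Of 31 genes of ER import and N-glycosylation, 19 rose and 2 fell (median 0.61, and 0.20 with 17 higher and 0 lower with the offsets). Ssr4, Sec61b and Srp14, parts of the translocon and of the signal recognition particle, rose by 1.83 or more in log2, and by 0.48, 0.20 (not called, adjusted p = 0.0527) and 0.19 with the offsets. In ER-associated degradation 12 of 26 genes rose and 6 fell (median 0.21, and 0.15 with the offsets). Vimp, which encodes selenoprotein S, rose by 1.71 (0.39 with the offsets), Ubxn6, a cofactor of the VCP segregase, by 1.15 (1.33), and Syvn1, the ligase that works with Sel1l, fell by 1.41 (-0.91). Over these 5 lists 67 of 149 genes were higher and 41 lower, where 35.6% and 36.5% of all genes were, and 70 and 31 with the offsets, where 29.6% and 27.2% of all genes were. With total counts alone the split was 53 to 75.

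**Figure D4:**
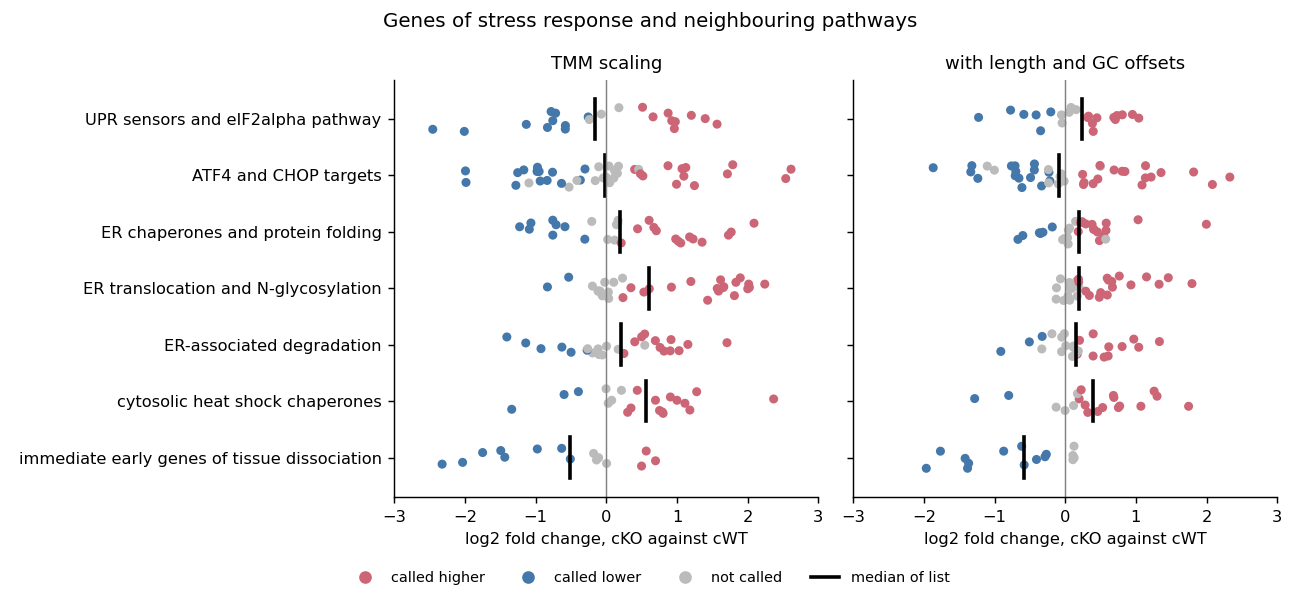
Log2 fold change of each tested gene in 7 lists of stress response and neighbouring genes, with TMM scaling on the left and with the length and GC offsets on the right, coloured by call, with the median of each list as a black bar. The import list has the highest median on the left, at 0.61, and the immediate early genes have the lowest in both, at -0.51 and -0.58.

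The heat shock chaperones of the cytosol, listed with the mitochondrial Hspd1 and Hspe1, had 13 of 20 genes higher and 3 lower (median 0.57, and 0.39 with the offsets), with Hspe1 up by 2.37 (0.75 with the offsets), Dnajb1 by 1.18 (1.30) and Cct5 by 1.11 (0.46). Immediate early genes, which tissue dissociation induces, had 8 of 15 lower and 3 higher (median -0.51, and -0.58 with 11 lower and 0 higher with the offsets). Fosb, Egr1 and Zfp36 fell by 2.32, 1.75 and 1.49, and were at -1.77, -0.87 and -1.42 with the offsets. For comparison, 35.6% of all genes tested rose and 36.5% fell, and 29.6% and 27.2% with the offsets. The part of these heat shock and immediate early genes in the results was not tested.

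All tested genes with the ERSE, Hspa5 and Hsp90b1 included, were also read, a choice made after the promoters had been searched. Of these 16 genes 2 rose, Creld2 and Pdia6, and 6 fell, among them Dnajc3, Canx and Syvn1 (median -0.13), beside 35.6% and 36.5% of all genes. With the offsets 3 were higher and 8 lower (median -0.31). Creld2 (0.03), Dnajc3 (-0.04) and Canx (0.06) were then not called, Pdia6 and Syvn1 kept their calls, and Acacb turned from -0.98 to 0.71. The variant element was upstream of 6 tested genes, Herpud1 included, of which 3 rose and 0 fell (median 0.14). With the offsets 2 of them were higher and 2 lower (median 0.04). Of 93 tested genes with TGACGTGG upstream, 25 rose and 35 fell (25 and 32 with the offsets). Of 259 with TGATGNAA, 85 rose and 91 fell (73 and 85 of 257 with the offsets).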

How the data were processed

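Per the file headers, the deposited values are estimated counts for each gene symbol and library, beside the authors' own comparison. STAR 2.7.9a, RSEM and DESeq2 with GRCm38 and mm10 are listed without roles by the submitters' processing notes. No annotation or strandedness is named (not given in the sources used here), and overlapping and antisense transcripts cannot be told apart. Fractional values made up 5.50% to 5.85% per library and were rounded. In the authors' deposited table the base mean is a signal averaged over libraries, beside log2 fold changes and their standard errors, a Wald statistic (a score), and p-values, per the file headers. From it only the base mean of Mir137 is printed.

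Counts were tested with edgeR 4.0.16 in R 4.3.3 (quasi-likelihood, two-sided, TMM scaling, filterByExpr with a minimum count of 10, genotype as the only term). P-values were adjusted by Benjamini-Hochberg over 13490 genes, 3969 having been set aside, and genes were called under 0.05. Standard errors were derived from the test statistic. The scripts were tested on simulated data. Lengths and GC content came from principal transcripts of GENCODE M21 (GRCm38), which need not be those expressed, for 99.3% of tested genes, and entered offsets as splines with 5 degrees of freedom. Coordinates and promoters are RefSeq GRCm38.p6. Precision rests on 3 libraries per genotype of 12068703 to 17482042 counts. The members and the gene lists were chosen with earlier results of these data known. All 10 members are named, and from each of 7 pathway lists the 3 genes with the smallest p. March6 was not matched in the table. The alternatives were DESeq2 1.42.0, other scalings and filters, the offsets, a block for the replicate number and leaving out each library. The summed lymphocyte and plasma cell markers are not reported here.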

Additional observations from a re-analysis of the deposited data

How the results depend on the processing

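Of the 14 alternatives, the offsets for length and GC content and the scaling by total counts alone changed directions. With the offsets Atf4, Ddit3 and Herpud1 turned to -0.074, -0.34 and -0.23, Uggt1 to 0.24, Eif2ak3 to 0.082 and Atf6 to 0.40, and 3 of the 10 genes were lower where 1 was without them. With total counts alone Hspa5, Hsp90b1, Herpud1 and Ppp1r15a turned to -0.21, -0.16, -0.14 and -0.22, and 75 genes of the 5 ER and stress lists were lower in place of 41. The causes were not tested. DESeq2, its size factors in edgeR, both other filters and leaving out any library left each of the 10 genes in its direction, and the number called higher lay between 5 and 8 in place of 6. Trib3 was set aside by the filter of 5 CPM. Calls of Hspa5, Hsp90b1 and Herpud1 depended on single libraries, as given with their values. For Trib3, counts of 18 to 32 limit what can be seen.

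Same-numbered libraries deviated together only weakly, with correlations of 0.0985, 0.0335 and 0.0882, so the numbers were not taken to pair them, although each library correlated best with its own number. With the replicate block 8 of the 10 genes were called higher and 1 lower, Hspa5 (adjusted p = 0.0132) and Hsp90b1 (adjusted p = 0.00305) being added, and 4883 genes in all were higher and 5028 lower. The block together with the offsets gave -0.075 for Atf4, -0.34 for Ddit3, -0.24 for Herpud1, 0.24 for Uggt1, 0.082 for Eif2ak3 and 0.40 for Atf6, with 3 of the 10 lower.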
